A study of Mus musculus with 12 samples.

Results

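The genes described here are 41 genes of DNA replication and S phase. They come from a list of licensing, helicase, polymerase, clamp loader, nucleotide supply and G1/S control genes. No cut on measured values was used, but the list was chosen with earlier results of these data known. All 41 were found among the 23479 genes of the deposited table. Of these, 39 had a mean normalized count of at least 10 over the 12 libraries and were tested, beside 11122 genes in all. Orc1, a subunit of the origin recognition complex, and Gins2, a subunit of the helicase cofactor GINS, lay under that minimum and are given as values only.

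Total RNA was sequenced from myeloid-derived suppressor cells (MDSC), immature myeloid cells that expand with a tumour and can dampen T cell responses. C57BL/6 mice carried B16 melanomas, and treatment began when the tumours were above 25 mm2. The LD mice were lymphodepleted with fludarabine, a nucleoside analogue that stops DNA synthesis, and cyclophosphamide, which crosslinks DNA, while the Ctrl mice carried the same tumour and were left untreated. Monocytic (M-MDSC) and polymorphonuclear (PMN-MDSC) cells were sorted by FACS from spleens on day 7 after treatment, giving 3 libraries for each of the 4 pairings of population and treatment. The age and sex of the mice are not given in the sources used here. The labels give 3 mice per treatment, but not whether libraries with the same number came from the same mouse. M-MDSC and PMN-MDSC libraries of a treatment may therefore share mice, and the main comparisons between populations treat them as independent. P-values measure only the spread between these samples.

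Before a cell copies its DNA, the origin recognition complex, Cdc6 and Cdt1 load the Mcm2 to Mcm7 ring onto origins, and geminin (Gmnn) blocks further loading. Cyclin E and E2F factors drive entry into S phase, when Cdc45, GINS and Mcm10 turn the loaded ring into a moving helicase. Polymerases, the Pcna clamp and its loader then copy both strands, Lig1 seals the fragments, Dnmt1 and Uhrf1 copy DNA methylation, and ribonucleotide reductase and thymidylate synthase supply nucleotides. In the bone marrow and spleen, monocyte and neutrophil precursors divide and their mature progeny largely do not.

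The sorted populations carried the markers of their labels. The summed normalized count of 9 monocyte genes, among them Ccr2 and Csf1r, was 70549 to 118874 in the M-MDSC libraries and 8425 to 12719 in the PMN-MDSC libraries. For 8 neutrophil genes, among them Cxcr2 and Csf3r, it was 390210.1 to 604984 in PMN-MDSC and 5814 to 38947 in M-MDSC. The highest M-MDSC sum was that of LD replicate 1, and Ly6g was not analysed here. The libraries held 8906045 to 16242926 reads, and 1 read was worth 0.561 to 1.596 normalized counts, so the lowest members rest on a few reads. In such bulk samples, fewer cells in S phase and less RNA per cell cannot be told apart.

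Many replication genes carry E2F-type words near their start, and the stretches below show what such a word looks like in the promoters of members whose values are given later. The windows ran from 250 bases before to 50 after each start in RefSeq (build GRCm38.p6), and both strands were searched for TTTCCCGC, TTTGGCGC, TTTCGCGC and TTTGCCGC. A window was found for 33 of the 41 members. At least 1 word stood in the windows of 14 of them (Cdc6, Cdt1, Dnmt1, E2f2, Lig1, Mcm3, Mcm5, Mcm6, Mcm7, Orc1, Pola1, Pold1, Rfc3 and Uhrf1). By window, 34.1% of the members' windows and 2.26% of all 32851 windows held a word. Each stretch is written 5′ to 3′ on the strand of its gene, with the word or its reverse complement in capitals. In Mcm5 and Mcm6 a pair of words overlap in a single capital run.
Cdc6, chr11:98907991-98908042, plus strand: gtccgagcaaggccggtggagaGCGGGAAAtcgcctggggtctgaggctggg
Mcm5, chr8:75109334-75109389, plus strand: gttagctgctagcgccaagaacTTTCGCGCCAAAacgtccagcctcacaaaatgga
Mcm6, chr1:128359782-128359837, minus strand: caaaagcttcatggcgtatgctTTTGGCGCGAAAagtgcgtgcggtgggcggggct
Mcm7, chr5:138172019-138172070, minus strand: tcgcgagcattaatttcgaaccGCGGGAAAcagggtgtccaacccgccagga
Pola1, chrX:93632264-93632315, minus strand: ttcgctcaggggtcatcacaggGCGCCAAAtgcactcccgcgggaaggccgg
Dnmt1, chr9:20952813-20952864, minus strand: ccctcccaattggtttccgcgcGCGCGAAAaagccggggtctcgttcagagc
Uhrf1, chr17:56304106-56304157, plus strand: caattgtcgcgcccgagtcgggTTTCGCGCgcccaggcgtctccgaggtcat

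Mitosis genes, a list of 24 used here for comparison, had 22 windows, from 21 of the genes. An E2F-type word stood in 1 of these windows (4.55%). The CHR word TTTGAA, known from promoters of late cell cycle genes, stood in 72.7% of the mitosis windows, 12.2% of the replication windows and 17.9% of all windows. The CCAAT word stood in 81.8%, 56.1% and 37.4% of them. These matches are descriptions of letters, and the words were not tied to binding. Among tested members, the median log2 difference between LD and Ctrl M-MDSC was 0.95 for the 13 with an E2F-type word and 1.0 for the 19 without.

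In M-MDSC, the replication genes mostly had higher values after lymphodepletion, with the highest in LD replicate 1, and only Mcm10 rose past the threshold. Of the 39 tested members, 37 had a positive log2 difference and the median was 0.91, against -0.04 over all genes tested. Mcm10 was called higher and no member lower at an adjusted p of 0.05 (limma, Benjamini-Hochberg), where 2.54% of all genes were called higher and 0.468% lower. At an unadjusted p of 0.05, 15 members and 13.1% of all genes passed. In 24 of the 41 members every LD library lay above every Ctrl library and in none was it the reverse, while 10.6% of all genes did the former and 12.4% the latter.

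LD replicate 1 was the highest of the 3 LD libraries for 40 of the 41 members in M-MDSC and for 34 in PMN-MDSC, against 35.8% and 35.2% of all genes tested. The summed normalized count of the 41 members was 6336, 6264 and 6543 in the M-MDSC Ctrl libraries and 15859, 7925 and 8709 in the M-MDSC LD libraries. In PMN-MDSC it was 4616, 4898 and 4953 in Ctrl and 9241, 5450 and 6421 in LD. So all LD libraries lay above all Ctrl libraries of their population, and the first of each was the highest. Without E2f2, the member with the highest counts, the PMN-MDSC sums were 2391, 2662 and 2422 in Ctrl and 6388, 2480 and 2932 in LD, and LD replicate 2 then lay within the Ctrl range. Results are therefore also given with both LD libraries numbered 1 left out.

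**Figure D1:**
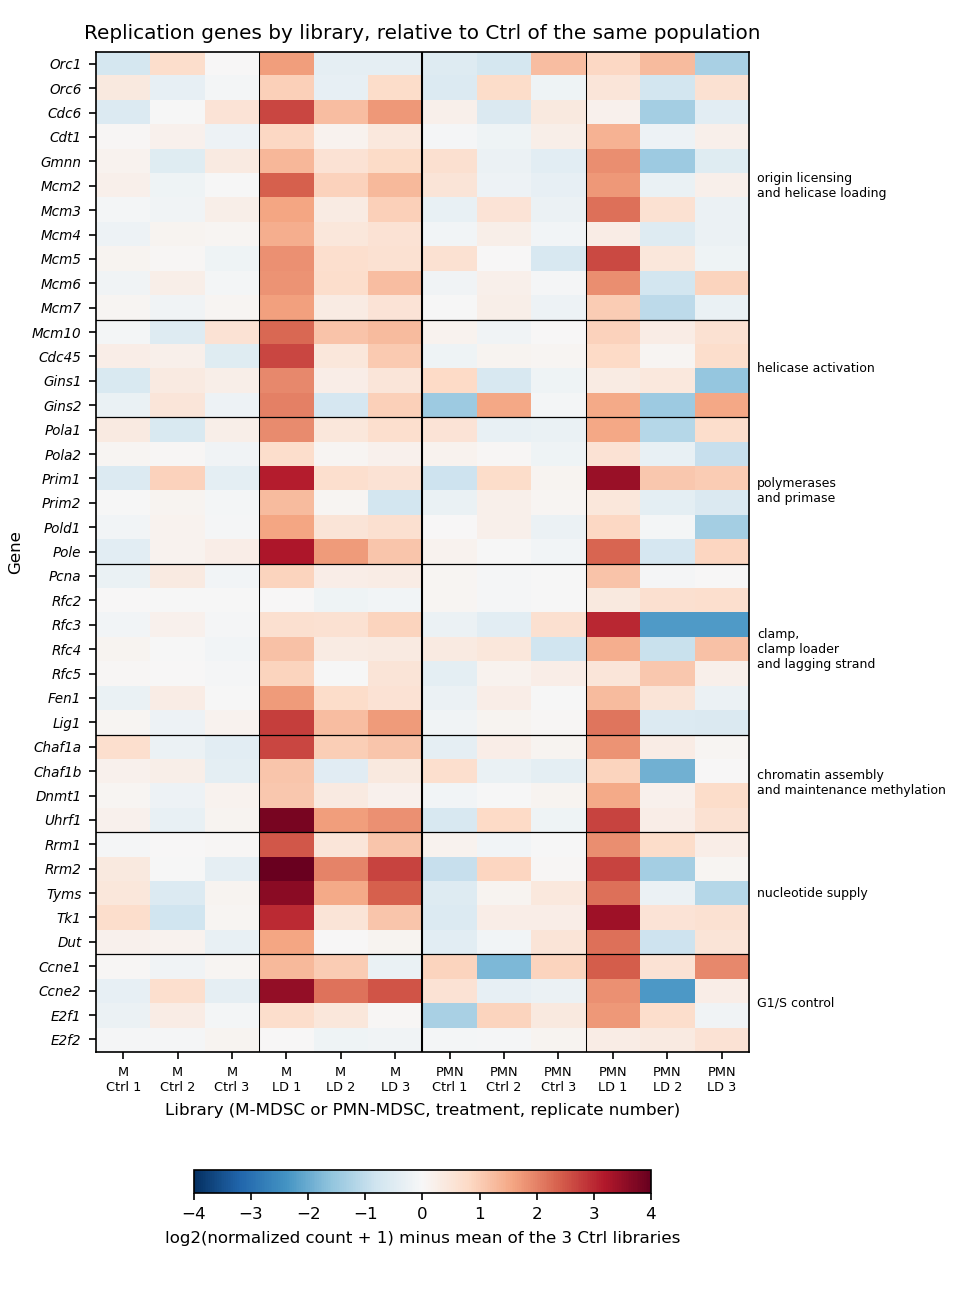
Colours show log2(normalized count + 1) of each of the 41 genes (rows, by role) in each of the 12 libraries (columns), minus the mean of the 3 Ctrl libraries of the same population. The columns of LD replicate 1 are the reddest in both populations, and Rfc2 and E2f2 stay near 0 in M-MDSC and are above it in all 3 PMN-MDSC LD libraries.

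Origin licensing and helicase loading genes were all positive in M-MDSC (10 of 10 tested, median log2 difference 0.92), and none passed the test. Cdc6, the ATPase that recruits the helicase ring with Cdt1 (mm10, chr11:98907801-98923940), measured 11.7, 17.2 and 25.8 normalized counts in Ctrl and 115.2, 42.5 and 60.1 in LD. Its groups did not overlap, and the log2 difference of 1.88 ± 0.49 (SE) had a limma adjusted p of 0.0516. It passed in 9 of 23 alternatives, edgeR and DESeq2 among them, with adjusted p from 0.00278 to 0.201. All 6 ring subunits, Mcm2 to Mcm7, also had LD libraries above every Ctrl library, with log2 differences from 0.83 in Mcm4 to 1.54 in Mcm2. Mcm2 read 90.1, 69.9 and 76.9 in Ctrl and 419.4, 148.6 and 196.0 in LD. For Mcm5 the values were 177.0, 169.4 and 144.2 in Ctrl and 582.4, 259.8 and 250.2 in LD (1.04 ± 0.56, limma adjusted p = 0.48), and for Mcm6 they were 159.5, 209.6 and 167.7 in Ctrl and 622.3, 287.0 and 422.6 in LD (1.25 ± 0.47, adjusted p = 0.223). LD replicate 1 was the highest library for all 3 genes. Mcm7 read 182.9, 155.0 and 181.2 in Ctrl and 538.2, 219.1 and 254.2 in LD (0.84 ± 0.42, adjusted p = 0.416). For Cdt1 the LD values of 278.9, 171.5 and 208.9 overlapped the Ctrl values of 161.5, 174.1 and 134.1.

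Mcm10, which binds the loaded helicase and is needed for its activation (mm10, chr2:4989714-5012791), was the member that rose in M-MDSC. It measured 37.0, 26.8 and 58.3 in Ctrl and 194.1, 86.6 and 94.6 in LD. The LD libraries all lay above the Ctrl libraries, at a log2 difference of 1.57 ± 0.35 (limma adjusted p = 0.0257). The call was lost without M-MDSC LD replicate 1 (log2 1.20, limma adjusted p = 0.113), without Ctrl replicate 1 (1.54, adjusted p = 0.0904) and without Ctrl replicate 2 (1.31, adjusted p = 0.105), and over 23 alternatives the adjusted p ran from 0.00081 to 0.113. With both LD libraries numbered 1 left out it was 1.20 (adjusted p = 0.0688). Cdc45, a core subunit of the active helicase, read 41.5, 40.2 and 24.7 in Ctrl and 224.6, 47.6 and 72.9 in LD, again without overlap, at 1.39 ± 0.44 (limma adjusted p = 0.119).

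The polymerase and primase genes had a median log2 difference of 0.96 in M-MDSC, with none of 6 called. Pole, the catalytic subunit of the leading-strand polymerase, measured 19.5, 28.7 and 32.0 in Ctrl and 255.7, 87.5 and 57.1 in LD. Its lowest LD library lay above its highest Ctrl library, with a difference of 2.01 ± 0.65 (limma adjusted p = 0.123). Pola2, the accessory subunit of polymerase alpha, and the primase subunit Prim2 differed least, by 0.31 and 0.20, and their groups overlapped.

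Among clamp, clamp loader and lagging-strand genes the median was 0.62 and none of 7 passed. Lig1, the ligase that joins Okazaki fragments, measured 92.1, 76.5 and 97.0 in Ctrl and 598.4, 209.7 and 291.6 in LD. All LD libraries were higher, at 1.90 ± 0.57 (limma adjusted p = 0.0939). Without both LD libraries numbered 1 the difference was smaller but the call was gained (1.48, adjusted p = 0.00613), and over 23 alternatives the adjusted p ran from 0.00289 to 0.316. Pcna, the sliding clamp, read 323.0, 492.8 and 358.5 in Ctrl and 711.4, 461.9 and 474.8 in LD, and these groups overlapped.

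Among chromatin genes the median log2 difference was 1.06 and among nucleotide supply genes 1.54, and none of their 9 tested members passed. Uhrf1, which brings Dnmt1 to newly copied DNA, measured 52.5, 37.3 and 50.5 in Ctrl and 657.8, 148.6 and 165.5 in LD (2.43 ± 0.63, limma adjusted p = 0.052). Rrm2, the small subunit of ribonucleotide reductase that is made in S phase (mm10, chr12:24708241-24714146), measured 53.8, 40.2 and 32.0 in Ctrl and 646.2, 163.9 and 274.9 in LD. That was the widest gap among the members, at 2.88 ± 0.78 (limma adjusted p = 0.0642). Neither gene's groups overlapped, and both were called without the LD libraries numbered 1 (Uhrf1 1.74, adjusted p = 0.0256, and Rrm2 2.34, adjusted p = 0.0198). Over their alternatives the adjusted p ran from 0.00924 to 0.197 for Uhrf1 and from 0.00237 to 0.223 for Rrm2. Tyms, thymidylate synthase, measured 20.1, 9.6 and 15.7 in Ctrl and 187.6, 43.3 and 79.8 in LD (2.5 ± 0.75, limma adjusted p = 0.0975).

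G1/S control genes were uneven. Ccne2, cyclin E2, measured 9.7, 20.1 and 9.5 in Ctrl and 152.1, 59.4 and 74.9 in LD, with every LD library higher (2.73 ± 0.81, limma adjusted p = 0.0901). Its sister Ccne1 read 27.2, 23.9 and 28.0 in Ctrl and 65.9, 54.3 and 21.7 in LD, which overlapped. E2f2, an activator E2F factor, was nearly level, with 1706.9, 1702.3 and 1895.0 in Ctrl and 1772.6, 1576.8 and 1612.7 in LD. E2f2 and the clamp loader subunit Rfc2 were the 2 members with negative differences (-0.10 and -0.09).

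The count of members called in M-MDSC depended on the test and on single libraries. EdgeR's quasi-likelihood test on the recovered reads called 6 higher and DESeq2 13, against 3.49% and 4.94% of all genes higher, and neither called a member lower (0.468% and 1.56% of all genes). Without both LD libraries numbered 1, limma called 3 (Lig1, Uhrf1 and Rrm2) and the members' median was 0.62, with 3.21% of all genes higher and 0.898% lower. Leaving out single libraries gave no call without M-MDSC Ctrl replicate 1, Ctrl replicate 2 or LD replicate 1, and 7 calls without M-MDSC LD replicate 2, with 1.73%, 2.12%, 2.1% and 3.68% of all genes called in those fits. It gave 11 and 6 when replicate 1 or replicate 2 of PMN-MDSC LD was dropped, libraries that enter this comparison only through the pooled spread, with 4.92% and 3.28% of all genes called.

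**Figure D2:**
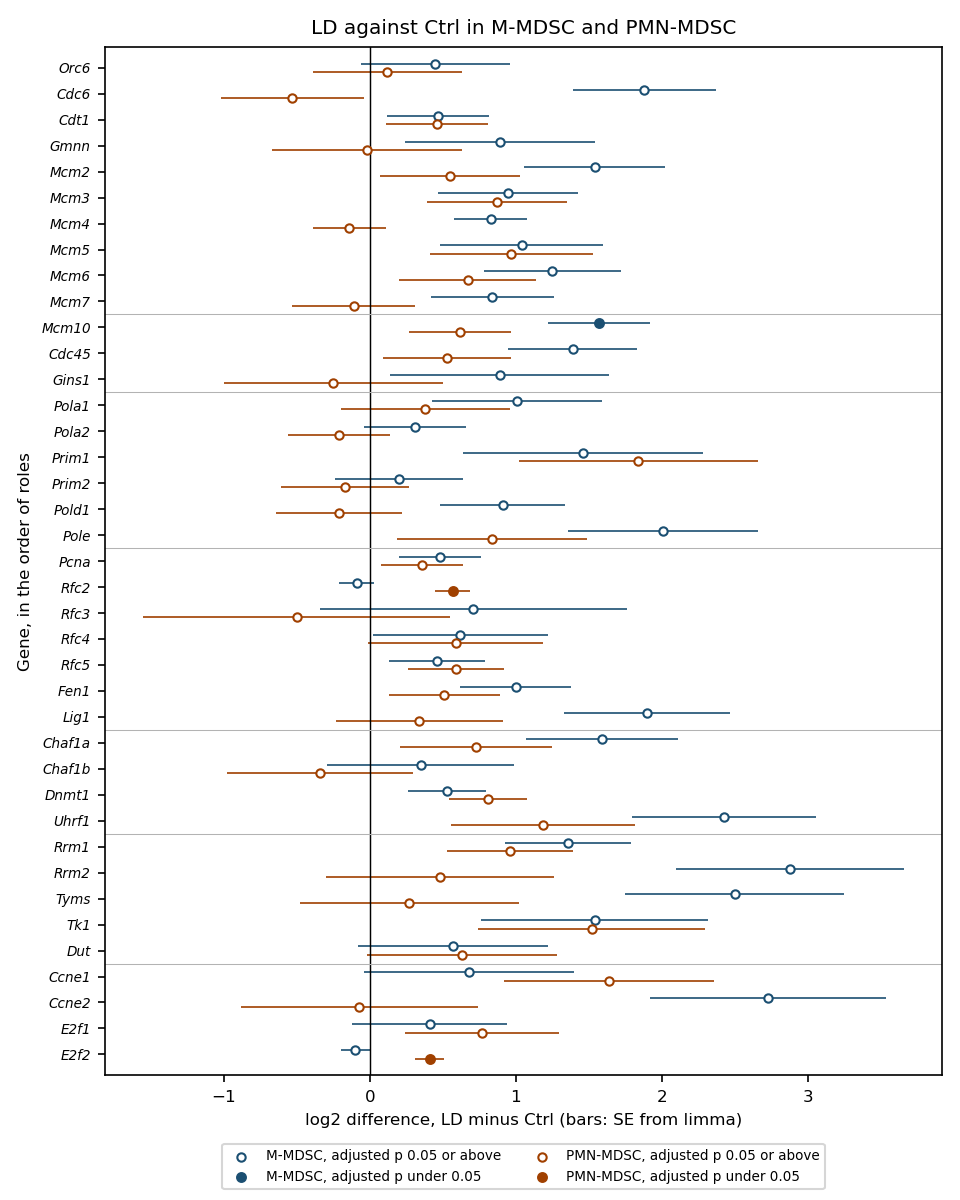
Points show the log2 difference between LD and Ctrl for the 39 tested members in M-MDSC (blue) and PMN-MDSC (brown), with bars of 1 SE from limma; filled points have an adjusted p under 0.05. Mcm10 is filled in M-MDSC and Rfc2 and E2f2 in PMN-MDSC, and 37 of 39 blue points lie right of 0.

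Other genes moved with the members in M-MDSC. All 24 mitosis genes had every LD library above every Ctrl library, and 16 rose past the threshold, with a median log2 difference of 2.36. Prc1, a spindle midzone protein, rose by 2.79 ± 0.45 (limma adjusted p = 0.00307) and Hmmr, a spindle-associated protein, by 3.20 ± 0.55 (adjusted p = 0.00448). Their summed normalized count was 2494, 1898 and 1998 in Ctrl and 19811, 6077 and 7916 in LD. With both LD libraries numbered 1 left out, 18 of the 24 were called and the median was 1.86.

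Markers of granulocyte-monocyte progenitors, dividing cells of the marrow, also moved. Of 10 tested, 7 rose and none fell in M-MDSC, among them Myb, Kit, Mpo and Elane. Their sum was 527 to 635 in Ctrl and 8134, 2091 and 2534 in LD, and none of the 10 was at 0 throughout a group. Of 7 immature neutrophil granule genes, 5 rose and 1 fell, and their sum was 3605 to 5129 in Ctrl and 53024, 12206 and 25331 in LD. The sum of 8 neutrophil genes was 5814 to 6577 in Ctrl and 38947, 9535 and 16065 in LD, and 3 of them rose. LD replicate 1 was the highest library for all 3 sums, and their part in the members' differences was not tested. Of 12 erythroid genes only Tfrc, a receptor that dividing cells also use, had enough reads to be tested, and the globin genes Hbb-bt and Hba-a1 were listed at 0 in every library. Of 6 macrophage genes 2 rose, and their sum was 130.1 to 183.7 in Ctrl and 340.5 to 451.3 in LD. None of the 6 was called without both LD libraries numbered 1. In the full comparison limma called none of 9 monocyte genes, with 4 positive and 5 negative differences. The monocyte sum was 99552, 118874 and 107755 in Ctrl and 70549, 89871 and 84384 in LD, a difference that was not tested.

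In PMN-MDSC, Rfc2 and E2f2 rose after lymphodepletion and no member fell. The other 37 tested members did not pass. The members' median log2 difference was 0.51, against -0.05 over all genes, with 28 positive and 11 negative. Calls were frequent in this comparison, at 7.17% of all genes higher and 8.51% lower (limma, Benjamini-Hochberg), so 2 of 39 is no larger a share than the background. Every LD library lay above every Ctrl library for 7 of the 41 members (Mcm10, Prim1, Rfc2, Dnmt1, Rrm1, Tk1 and E2f2) and below for none, against 14.1% and 17.8% of all genes.

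Rfc2, a small subunit of the complex that loads Pcna (mm10, chr5:134581366-134601805), measured 309.1, 280.4 and 285.7 in PMN-MDSC Ctrl and 385.5, 450.1 and 467.0 in LD. LD replicate 1 was here the lowest of the LD libraries, yet above all Ctrl libraries. The gene rose by 0.57 ± 0.12 on the log2 scale (limma adjusted p = 0.0082) and passed in all 23 alternatives, with adjusted p from 0.00078 to 0.0344. In the GENCODE vM21 annotation, 15.1% of its exon bases also belong to exons of Lat2, whose PMN-MDSC levels were 89.8 ± 12.3 in Ctrl and 79.7 ± 27.9 in LD (mean ± SD, n = 3). In M-MDSC Rfc2 read 339.2, 333.9 and 329.3 in Ctrl and 339.8, 293.8 and 307.4 in LD (limma adjusted p = 0.885).

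E2f2 (mm10, chr4:136172394-136196057) measured 2224.8, 2236.0 and 2531.6 in PMN-MDSC Ctrl and 2852.5, 2969.7 and 3488.9 in LD. All LD libraries were higher, with a rise of 0.41 ± 0.10 (limma adjusted p = 0.0121). The call was lost without PMN-MDSC LD replicate 3 (0.32, adjusted p = 0.0504), in 1 of 23 alternatives over which the adjusted p ran from 0.00255 to 0.0504. Per kb of exon, E2f2 was the most abundant member in all 4 groups, at means of 362, 339, 477 and 636 normalized counts in Ctrl and LD M-MDSC and then Ctrl and LD PMN-MDSC. Pcna, with 163, 229, 50.2 and 69.7, and Dnmt1, with 153, 228, 45.4 and 85.4, followed in M-MDSC, while the next in PMN-MDSC were Mcm4 in Ctrl (83.8) and Dnmt1 in LD.

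The remaining roles gave no call in PMN-MDSC. Dnmt1, the maintenance DNA methyltransferase, came nearest, with 313.2, 332.2 and 359.1 in Ctrl and 949.5, 378.0 and 562.3 in LD (0.81 ± 0.27, limma adjusted p = 0.0549). Its groups did not overlap, and the value was 0.46 (adjusted p = 0.0528) without the LD libraries numbered 1, with adjusted p from 0.0104 to 0.165 over the alternatives. Rrm1, the large subunit of ribonucleotide reductase, read 97.9, 80.9 and 86.2 in Ctrl and 324.6, 148.6 and 106.6 in LD (0.96 ± 0.43, adjusted p = 0.143).

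Prim1, the catalytic primase subunit, measured 2.0, 7.9 and 4.8 in PMN-MDSC Ctrl and 58.2, 10.3 and 9.8 in LD (1.84 ± 0.82, limma adjusted p = 0.141). Mcm10 measured 82.6, 66.8 and 75.0 in Ctrl and 143.4, 92.7 and 113.6 in LD (0.62 ± 0.35, adjusted p = 0.256). Both were higher in every LD library than in any Ctrl library. Mcm3, a ring subunit, read 30.6, 55.4 and 31.9 in Ctrl and 178.5, 58.8 and 32.3 in LD (0.87 ± 0.48, adjusted p = 0.24), so that its groups overlapped and only LD replicate 1 stood apart. Cdc6 measured 79.6, 45.7 and 91.0 in Ctrl and 78.4, 26.5 and 51.9 in LD, the most negative difference of the members in this population (-0.53 ± 0.49, adjusted p = 0.495).

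Without both LD libraries numbered 1, the members' median in PMN-MDSC was 0.04, and Rfc2 (0.65, limma adjusted p = 0.00329) and E2f2 (0.47, adjusted p = 0.00473) remained called. Rfc3, another loader subunit, was then called lower (-2.26, adjusted p = 0.0216). It had measured 3.1, 2.6 and 6.4 in Ctrl and 37.9, 0.0 and 0.0 in LD. At that setting 10.4% of all genes were called higher and 11.6% lower. EdgeR called 2 members and DESeq2 5, all higher, beside 6.37% and 8.95% of all genes higher and 9.29% and 10.5% lower. The count was 4 when PMN-MDSC LD replicate 2 was dropped and 1 when replicate 3 was. In those fits 12.9% and 10.9% of all genes were called.

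None of the 24 mitosis genes was called in PMN-MDSC by limma, edgeR or DESeq2 or passed an unadjusted p of 0.05, with a median of 0.31 and -0.34 without the LD libraries numbered 1. Their sum was 4411 to 5651 in Ctrl and 16218, 3218 and 5058 in LD. Progenitor markers summed to 352 to 508 in Ctrl and 1405, 568 and 865 in LD, with 3 of 10 called higher. Immature granule genes summed to 118940 to 132335 in Ctrl and 282065 to 370314 in LD, with 6 of 7 called higher. The part of these genes in the members' values was not tested.

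**Figure D3:**
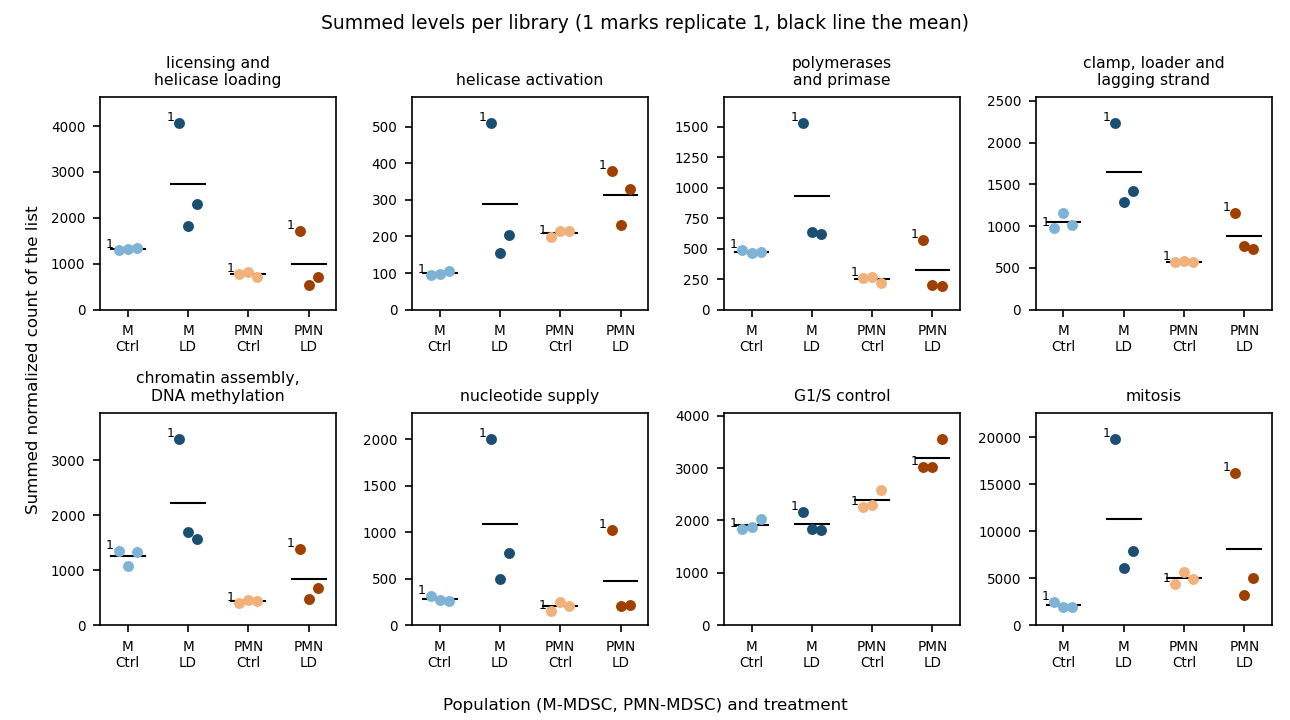
Points show the summed normalized count of the genes of each role, and of 24 mitosis genes, in each library of the 4 groups, with a black line at the mean of 3; the y axes start at 0 and differ between panels. Replicate 1 of M-MDSC LD and of PMN-MDSC LD is the highest point of its group in each panel except G1/S control in PMN-MDSC, where it is the lowest.

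Whether the populations responded differently was tested as the difference between their LD changes. No member passed (limma, Benjamini-Hochberg), where 1.18% of all genes had a larger change in M-MDSC and 1.07% a smaller one. At an unadjusted p of 0.05, 6 members (15.4%) passed, a smaller share than the 18% of all genes. The nearest were Rfc2 (-0.66 ± 0.18, adjusted p = 0.0658) and E2f2 (-0.51 ± 0.14, adjusted p = 0.0696), with the larger change in PMN-MDSC, and Cdc6 (2.41 ± 0.69, adjusted p = 0.0802), with the larger change in M-MDSC. The median over the members was 0.58, with 31 positive and 8 negative, against 0.04 over all genes. With edgeR and DESeq2 the medians were 0.49 and 0.44, with 25 members positive in each, against 0.08 and 0.02 over all genes.

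EdgeR called no member in this comparison (1.74% and 0.863% of all genes larger and smaller in M-MDSC). DESeq2 called 1 larger and 2 smaller (3.3% and 2.92% of all genes). Without both LD libraries numbered 1, limma called 4 larger in M-MDSC and 2 smaller, beside 3.79% and 3.1% of all genes. The larger ones were Cdc6 (2.37, adjusted p = 0.049), Mcm4 (0.88, adjusted p = 0.0455), Lig1 (2.04, adjusted p = 0.00774) and Rrm2 (2.97, adjusted p = 0.0285). The smaller ones were Rfc2 (-0.80, adjusted p = 0.0189) and E2f2 (-0.62, adjusted p = 0.0186). Without PMN-MDSC LD replicate 1 alone, 9 members were called, and 824 of 11134 genes in place of 250 of 11122. The 24 mitosis genes all had a positive difference, with a median of 2.01. Limma called 1 of them larger in M-MDSC, edgeR none and DESeq2 2, and limma called 17 without both LD libraries numbered 1.

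In untreated mice, 17 of the 39 tested members were higher in M-MDSC than in PMN-MDSC and 4 were lower (Cdc6, Cdc45, Mcm10 and E2f2) by limma. In this comparison 38.8% and 36.8% of all genes were called. The share of members higher in M-MDSC was thus near the background, and the share lower in M-MDSC was under it. The median log2 difference was 0.79, against 0.06 over all genes. The groups did not overlap for 25 members with M-MDSC above and 5 with PMN-MDSC above, against 41.9% and 39.1% of all genes. By this count the share with M-MDSC above was over the background, and the share with PMN-MDSC above was under it. No LD library enters these means.

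The widest differences towards M-MDSC were in nucleotide supply, the clamp loader and the helicase ring. Dut, which removes dUTP so that uracil is kept out of DNA, measured 64.2, 62.2 and 46.0 in M-MDSC and 6.1, 7.9 and 12.8 in PMN-MDSC (2.60 ± 0.65, limma adjusted p = 0.00231). The loader subunit Rfc4 measured 40.9, 37.3 and 34.8 against 8.2, 8.8 and 3.2 (2.42 ± 0.60, adjusted p = 0.00214), and Mcm3 192.6, 186.6 and 240.1 against 30.6, 55.4 and 31.9 (2.41 ± 0.48, adjusted p = 0.0004). None of these overlapped between the populations. Rfc3, at 22.7, 27.7 and 24.1 against 3.1, 2.6 and 6.4, differed by 2.43 ± 1.05 (adjusted p = 0.0484). That call was lost in 12 of 22 alternatives, including without each Ctrl library of either population and without each M-MDSC LD library (adjusted p 0.0563 to 0.114), and over all alternatives the adjusted p ran from 0.00064 to 0.114.

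Pcna, at 323.0, 492.8 and 358.5 against 126.5, 116.9 and 118.1, differed by 1.67 ± 0.28 (limma adjusted p = 7.9e-05). Dnmt1, at 1186.8, 968.3 and 1221.2 against 313.2, 332.2 and 359.1, differed by 1.74 ± 0.27 (adjusted p = 3.6e-05). These are among the members with the most reads, and their populations were far apart. The other members higher in M-MDSC were Cdt1, Mcm2, Mcm5, Mcm6, Gins1, Pola1, Pola2, Rfc5, Fen1, Ccne1 and E2f1, with log2 differences from 0.79 in Rfc5 to 2.29 in Gins1. The Rfc5 call was lost in 9 of 23 alternatives, among them without each M-MDSC Ctrl library and without PMN-MDSC Ctrl replicate 1 or 2 (limma adjusted p from 0.0241 to 0.142 over all alternatives). That of Fen1 was lost in 5 of 23, among them without M-MDSC Ctrl replicate 2 or 3 and without PMN-MDSC Ctrl replicate 1 or 3 (0.00362 to 0.0929). Mcm2 and Mcm5 lost theirs without PMN-MDSC Ctrl replicate 3 (highest adjusted p 0.0508 and 0.0515), and Ccne1 without PMN-MDSC Ctrl replicate 2 (0.103).

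On the other side, Cdc6 measured 11.7, 17.2 and 25.8 in M-MDSC and 79.6, 45.7 and 91.0 in PMN-MDSC (-1.94 ± 0.49, limma adjusted p = 0.00224). Cdc45 measured 41.5, 40.2 and 24.7 against 113.2, 139.7 and 135.7 (-1.87 ± 0.44, adjusted p = 0.00144). E2f2 differed by -0.40 ± 0.10 (adjusted p = 0.00182), from the values given above. For all 3 genes every PMN-MDSC library lay above every M-MDSC library. In Cdc45, 6.0% of exon bases are shared with Ufd1.

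Mcm10, at 37.0, 26.8 and 58.3 against 82.6, 66.8 and 75.0, was the fourth member higher in PMN-MDSC (-0.93 ± 0.35, limma adjusted p = 0.0274). Its groups did not overlap either. The call was lost without M-MDSC Ctrl replicate 1 or 2, without PMN-MDSC Ctrl replicate 1 or 3 and with edgeR (adjusted p 0.0566 to 0.122), and over 23 alternatives the adjusted p ran from 0.0094 to 0.122. So among the tested members of helicase activation, Cdc45 and Mcm10 stood higher in PMN-MDSC and Gins1 in M-MDSC.

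Mitosis genes were also compared in untreated mice. Of 24 tested, 17 were higher in PMN-MDSC and none in M-MDSC (limma, Benjamini-Hochberg), with a median of -1.48. Their sum was 1898 to 2494 in M-MDSC and 4411 to 5651 in PMN-MDSC, whereas the sum of the 41 replication genes was 6264 to 6543 and 4616 to 4953, of which E2f2 alone made up 1702 to 1895 and 2225 to 2532. EdgeR and DESeq2 called 12 and 15 of the mitosis genes higher in PMN-MDSC. Progenitor markers summed to 527 to 635 in M-MDSC and 352 to 508 in PMN-MDSC, and their part was not tested.

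**Figure D4:**
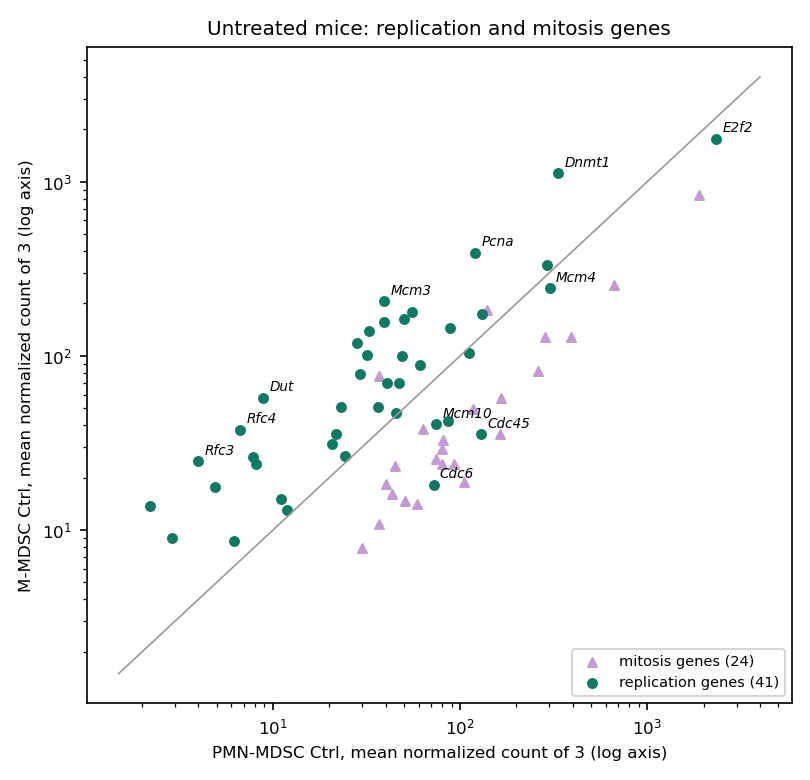
Each point is a gene, placed by its mean normalized count over 3 libraries in PMN-MDSC Ctrl (x) and M-MDSC Ctrl (y), both on log axes, with 41 replication genes as circles, 24 mitosis genes as triangles and a line of equal level. Most circles lie above the line and most triangles below it, and Cdc6, Cdc45, Mcm10 and E2f2 lie below it.

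After lymphodepletion, limma called 24 of the 39 members higher in M-MDSC and 2 higher in PMN-MDSC, where 38.8% and 36.1% of all genes were called, with a median of 1.46 against 0.10. The groups did not overlap for 15 and 2 members, against 38.7% and 36.5% of all genes. The share of members higher in M-MDSC was thus above the background by calls, but by the count without overlap it was no larger than the background. These comparisons use the same LD libraries as the changes above. The Pold1 call was lost in 14 of 23 alternatives, those of Chaf1a and Rrm1 in 5 each and that of Mcm4 in 4. Mcm5 and E2f1 lost theirs in 2 each and Gmnn in 1.

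Rfc3 measured 39.1, 38.2 and 46.3 in M-MDSC LD and 37.9, 0.0 and 0.0 in PMN-MDSC LD (3.63 ± 1.05, limma adjusted p = 0.00606), and was not called by edgeR (1.75, adjusted p = 0.101) or DESeq2 (1.70, adjusted p = 0.108), the highest of adjusted p-values that began at 1.0e-06 over 22 alternatives. Gins1, a subunit of the GINS complex, measured 52.9, 16.1 and 18.7 against 2.7, 2.9 and 0.0 (3.43 ± 0.75, adjusted p = 0.00077). Ccne2 measured 152.1, 59.4 and 74.9 against 43.3, 1.5 and 14.0 (2.91 ± 0.81, adjusted p = 0.00459). The populations did not overlap for these genes, although the PMN-MDSC values rest on few reads. Pola1, the catalytic subunit of polymerase alpha, measured 426.0, 156.2 and 181.3 against 81.2, 11.8 and 44.9 (2.66 ± 0.58, adjusted p = 0.00071), also without overlap.

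The 2 members higher in PMN-MDSC LD were E2f2 (-0.90 ± 0.10, limma adjusted p = 8.3e-07) and Rfc2 (-0.47 ± 0.12, adjusted p = 0.00361), the same that rose in PMN-MDSC. Neither gene's populations overlapped. Cdc6, with 115.2, 42.5 and 60.1 in M-MDSC LD and 78.4, 26.5 and 51.9 in PMN-MDSC LD, and Mcm10, with 194.1, 86.6 and 94.6 against 143.4, 92.7 and 113.6, overlapped and were not called (adjusted p = 0.388 and 0.951). With both LD libraries numbered 1 left out, 27 of 38 members stood above PMN-MDSC in M-MDSC and 3 below it (Cdc45, Rfc2 and E2f2), beside 37.5% and 35.6% of all genes.

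Other genes of the pathway, 84 in 5 lists of which 82 were tested, had a median log2 difference of 0.27 in M-MDSC. Limma called 7 higher and none lower, beside 2.54% and 0.468% of all genes. EdgeR called 12 higher and DESeq2 17, beside 3.49% and 4.94% of all genes, and neither called any lower. Among other origin and helicase genes 1 of 15 rose, Ticrr, which helps to load Cdc45 (2.48 ± 0.56, adjusted p = 0.0257). Among fork protection and chromatin assembly genes 2 of 12 rose, the S-phase ubiquitin ligase adaptor Dtl (2.95 ± 0.63, adjusted p = 0.0181) and the checkpoint adaptor Clspn (1.94 ± 0.44, adjusted p = 0.0258). No other polymerase or single-strand binding gene (15) and no other nucleotide supply gene (14) passed, with 2 and 1 at an unadjusted p under 0.05 and none called by edgeR or DESeq2.

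Of 26 other G1/S genes, 4 rose in M-MDSC. Ccna2, cyclin A2 of S phase and mitosis, measured 24.0, 32.5 and 37.0 in Ctrl and 629.5, 180.0 and 266.0 in LD (3.30 ± 0.54, limma adjusted p = 0.00311). The repressor E2f7 rose by 3.37 ± 0.61 (adjusted p = 0.00765), its relative E2f8 by 1.45 ± 0.37 (adjusted p = 0.049) and the G1 cyclin Ccnd2 by 2.13 ± 0.34 (adjusted p = 0.00301). LD replicate 1 was the highest LD library for the first 3 genes, and replicate 2 for Ccnd2.

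In PMN-MDSC the same 82 genes had a median of 0.04, with 4 higher and 3 lower, beside 7.17% and 8.51% of all genes. Without both LD libraries numbered 1 the median was -0.24, with 3 higher and 11 lower, beside 10.4% and 11.6% of all genes. The G1 cyclin Ccnd3 rose from 3493 to 4455 in Ctrl to between 5483 and 6036 in LD (0.58 ± 0.10, limma adjusted p = 0.00174). Tfdp1, the partner of E2F factors, rose by 0.94 ± 0.19 (adjusted p = 0.00594), E2f3 by 0.91 ± 0.29 (adjusted p = 0.0497) and the cyclin-dependent kinase inhibitor Cdkn1a by 1.17 ± 0.34 (adjusted p = 0.0335), a call lost without the LD libraries numbered 1 (0.99, adjusted p = 0.0623). The retinoblastoma gene Rb1 fell by 0.28 ± 0.08 (adjusted p = 0.0345), the mitochondrial thymidine kinase Tk2 by 0.52 ± 0.11 (adjusted p = 0.00694) and the origin recognition subunit Orc2 by 1.71 ± 0.53 (adjusted p = 0.043). No gene of these lists was called by limma in the difference between the LD changes, beside 1.18% of all genes larger in M-MDSC and 1.07% smaller. At an unadjusted p of 0.05, 17 (20.7%) passed, against 18% of all genes. EdgeR called 1 larger, beside 1.74% of all genes larger and 0.863% smaller. With DESeq2, 6 were larger and 1 smaller, beside 3.3% and 2.92% of all genes.

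Some members share exon bases with a neighbouring gene in the annotation (14 of 41), and whether reads were counted by strand is not given in the sources used here. The largest shares were 84.2% in Fen1, 67.3% in Gins2 and 52.5% in Chaf1a, whose values are uncertain for that reason. Fen1, the flap endonuclease, measured 81.1, 121.5 and 96.5 in M-MDSC Ctrl and 322.4, 163.9 and 146.8 in LD. Chaf1a, a subunit of the chromatin assembly factor, measured 77.2, 40.2 and 35.3 in Ctrl and 309.3, 95.9 and 104.4 in LD. Both genes had every LD library above every Ctrl library. Ccne2 (17.4%), Mcm7 (12.6%) and Rfc4 (12.7%) shared less.

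The members under the minimum were low in all groups. Orc1 measured 4.5, 13.4 and 7.9 in M-MDSC Ctrl and 27.5, 5.9 and 5.9 in M-MDSC LD, and 3.1, 2.6 and 12.8 in PMN-MDSC Ctrl and 9.5, 13.2 and 1.4 in PMN-MDSC LD. Gins2 measured 7.1, 12.4 and 7.3 in M-MDSC Ctrl and 37.7, 5.1 and 17.7 in M-MDSC LD, and 0.0, 7.0 and 1.6 in PMN-MDSC Ctrl and 6.8, 0.0 and 7.0 in PMN-MDSC LD. Both overlapped between Ctrl and LD in each population.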

How the data were processed

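The authors deposited 1 table of signal values, normalized counts of 23479 genes in 12 libraries made from total RNA depleted of ribosomal RNA. Per the submitters' processing notes, the tools were STAR 2.5.3a, HTSeq 0.6.1 and DESeq2 and the build was mm10, but their roles and the strand setting are not given in the sources used here. All deposited values were whole multiples of 1 read (100% within 0.001 reads), so whole reads were recovered. They carry no molecular identifiers. The labels do not say whether replicates were prepared apart beyond 3 mice per treatment.

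Limma 3.58.1 (R 4.3.3) was run on log2(normalized count + 1) of the 11122 genes with a mean of at least 10, with a mean per group, a trended empirical Bayes spread over all 12 libraries (8 residual degrees of freedom) and 2-sided p-values, Benjamini-Hochberg adjusted over all genes at 0.05. The added 1 shrinks fold changes of low genes, and a mean of logs can differ from the log of means where libraries are at 0, as in Rfc3. Same-numbered libraries were taken as paired only if the deviations of all 3 pairs correlated above 0.1, which no comparison met (LD between populations: 2 of 3 pairs), so no block was used. The script was tested on simulated data.

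Named in full are members called in an LD comparison, the member with the smallest adjusted p of each role in each population, and the 4 largest called differences each way between populations. Other lists give up to 4 called genes. Cdt1, Mcm2, Mcm5, Mcm6, Mcm7, Cdc45, Tyms, Pola2, Prim2, Pcna, Ccne1, Fen1 and Chaf1a were added after their values were seen. The members and lists were chosen with earlier results of these data known. Of the lists' symbols, 5 (Ly6g, Chil3, Jchain, Trac and Adgre1) had no match and were not analysed here.

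Alternatives were pseudocounts of 0.5 and 8, no minimum or a mean of 50, TMM and upper-quartile scaling, edgeR 4.0.16 and DESeq2 1.42.0 on the recovered reads, blocks by replicate number or presumed mouse, each population alone, and libraries left out. Python 3.11.15, numpy 2.4.6, pandas 2.3.3 and matplotlib 3.10.9 were used. Coordinates are from GENCODE vM21 (GRCm38, the build of mm10), and promoter sequences from RefSeq.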

Additional observations from a re-analysis of the deposited data

How the results depend on the processing

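No member called in the main limma run changed direction in any alternative run. Genes of the other lists were not checked for this, nor were calls made only in an alternative, such as Rfc3 in PMN-MDSC. Counts of members called are followed here by the percent of all genes called in the same fit. For LD against Ctrl in M-MDSC, 1 member was called (3.01%). The count was 5 with a pseudocount of 8 (3.43%), 3 with upper-quartile scaling (3.01%), 6 with edgeR (3.96%) and 13 with DESeq2 (6.5%). With M-MDSC fitted alone it was 11 (4.87%), and without both LD libraries numbered 1 it was 3 (4.11%). Leaving out single libraries gave 0 to 11 (1.73% to 4.92%). For PMN-MDSC, 2 were called (15.7%), 5 with DESeq2 (19.5%) and 1 to 4 with a library left out (8.0% to 19.4%). For the difference between the LD changes, 0 were called (2.25%), 2 with TMM scaling (2.83%) and 3 with DESeq2 (6.22%). Without both LD libraries numbered 1 it was 6 (6.89%), and with a library left out 0 to 9 (1.03% to 7.4%). M-MDSC against PMN-MDSC gave 21 calls in Ctrl (75.6%) and 26 in LD (74.8%). Over the alternatives the counts ran from 16 to 24 in Ctrl (43.7% to 79.2%) and from 21 to 34 in LD (42.4% to 77.6%). A replicate block gave 4 calls in M-MDSC (3.35%), 3 in PMN-MDSC (14.9%) and 0 for the difference (1.92%). Between populations it gave 20 in Ctrl (75.2%) and 29 in LD (74.4%). A replicate block by presumed mouse gave 4 for the difference (4.82%), 23 in Ctrl (76.2%) and 34 in LD (75.7%). Same-numbered libraries correlated at 0.208, 0.125 and 0.068 in LD and -0.037, 0.054 and 0.135 in Ctrl between the populations. The causes were not tested. Scaling moved the median of all genes between populations in Ctrl from 0.06 to 0.16 (TMM) and -0.12 (upper quartile), and that of the members from 0.79 to 0.89 and 0.61. With 3 libraries a group and low reads in PMN-MDSC, members such as Rfc3 and Gins1 are not precise.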
